A study of Mus musculus with 96 samples.

Results

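The genes described here are 9 markers of the fibroblasts that line the brain surface and its larger vessels: Dcn, Lum, Ogn, Fmod, Islr, Aldh1a2, Slc6a13, Slc22a6 and Foxc1. They were taken by name, though with earlier results of these data known, and all 9 were present among the 19918 genes counted. Bulk RNA of 2 brain regions, the nucleus accumbens (NAc) and the prefrontal cortex (PFC), was sequenced in each of 48 mice, giving 96 libraries. The mice belonged to the FCG (core genotypes) model, in which Sry, the testis-determining gene, is missing from the Y chromosome (written Y-) and is supplied by a transgene, so that sex chromosomes and gonads are inherited apart. XX mice and XY- mice had ovaries, and XXSry mice and XY-Sry mice had testes. Stressed mice went through subchronic variable stress, which here was restraint for 1 hour in each of 3 sessions spread over 6 days, and controls did not. There were 5 control and 6 stressed XX mice, 6 and 6 XXSry mice, 7 and 6 XY- mice, and 6 and 6 XY-Sry mice, from 3 cohorts that the labels call batches. For age, strain background and the promoter of the transgene the sources used here state nothing.

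The meninges are sheets of connective tissue around the brain, and their fibroblasts follow arteries and large veins into the tissue as perivascular fibroblasts. Dcn, Lum, Ogn and Fmod encode small leucine-rich proteoglycans (decorin, lumican, osteoglycin and fibromodulin), secreted proteins that bind collagen fibrils, and Islr encodes a leucine-rich repeat protein with an immunoglobulin domain that marks mesenchymal cells. Aldh1a2 encodes the enzyme that turns retinaldehyde into retinoic acid, which meningeal fibroblasts release during cortical development. Slc6a13 encodes the GABA transporter GAT2, Slc22a6 the organic anion transporter OAT1, and Foxc1 a forkhead transcription factor needed for the meninges to form. The comparisons ask whether these genes differed between the regions, with stress, with the sex chromosomes or with the gonads, and whether they rose and fell together from animal to animal.

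In the GENCODE M21 annotation of GRCm38, Dcn (ENSMUSG00000019929) and Lum (ENSMUSG00000036446) are neighbours on chromosome 10 (chr10:97479609-97518143 and chr10:97565128-97572703, both on the plus strand), 47 kb apart. Ogn (chr13:49608046-49624501) sits in a cluster of proteoglycan genes with Omd 15.2 kb, Aspn 40.5 kb and Ecm2 75.3 kb away, and Foxc1 (chr13:31806633-31812476) is on the same chromosome. Fmod (chr1:134037254-134048277) has Prelp 115.8 kb away on the other strand. Aldh1a2 is at chr9:71215789-71296243, Islr at chr9:58156268-58204306 on the minus strand, Slc6a13 (ENSMUSG00000030108) at chr6:121300227-121337733 and Slc22a6 at chr19:8618039-8628299. Because the strand setting of the counting is not stated, Ogn, which overlaps Cenpp on the opposite strand, and Islr, which overlaps 1600029O15Rik, are uncertain to the extent that reads of the pairs were mixed.

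RefSeq promoter sequences (GRCm38.p6) were found for 7 of the 9 genes, all but Dcn and Lum. The 4 shown belong to 2 of the 3 pairs of genes that followed each other most closely across PFC libraries (Fmod with Aldh1a2, and Slc6a13 with Slc22a6). Each runs 5′ to 3′ on the plus strand and ends just before the gene's start in RefSeq or GENCODE, whichever lies further upstream, and capitals mark matches, on either strand, to CCAAT, the GC box GGGCGG, the TATA motif TATAAA or the forkhead motif GTAAACA.
Fmod, chr1:134037004-134037253: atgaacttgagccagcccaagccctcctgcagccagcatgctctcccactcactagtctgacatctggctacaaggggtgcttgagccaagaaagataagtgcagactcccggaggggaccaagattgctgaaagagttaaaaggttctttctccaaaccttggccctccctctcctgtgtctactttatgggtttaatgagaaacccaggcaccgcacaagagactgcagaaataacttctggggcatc
Aldh1a2, chr9:71215539-71215788: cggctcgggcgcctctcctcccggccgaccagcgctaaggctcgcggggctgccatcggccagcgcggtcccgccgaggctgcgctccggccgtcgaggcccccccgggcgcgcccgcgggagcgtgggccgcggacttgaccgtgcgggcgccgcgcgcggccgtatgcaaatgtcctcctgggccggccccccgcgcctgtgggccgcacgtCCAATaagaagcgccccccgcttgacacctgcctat
Slc6a13, chr6:121300038-121300226: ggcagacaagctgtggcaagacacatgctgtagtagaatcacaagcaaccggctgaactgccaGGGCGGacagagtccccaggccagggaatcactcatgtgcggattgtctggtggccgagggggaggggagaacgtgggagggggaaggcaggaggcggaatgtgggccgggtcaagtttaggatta
Slc22a6, chr19:8617746-8617995: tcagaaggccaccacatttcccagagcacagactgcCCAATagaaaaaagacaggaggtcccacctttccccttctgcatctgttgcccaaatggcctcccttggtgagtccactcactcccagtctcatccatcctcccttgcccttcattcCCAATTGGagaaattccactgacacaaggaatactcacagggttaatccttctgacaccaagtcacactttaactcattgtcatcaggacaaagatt
The Aldh1a2 window is 77.6% G and C with 40 CpG dinucleotides, against 48.4% and 0 for Slc22a6, 51.2% and 2 for Fmod, and 59.8% and 7 for the shorter Slc6a13 window of 189 bases. Over 32851 promoter windows the median was 52.4% and 6 CpG. Aldh1a2 held 1 CCAAT match and Slc22a6 held 3, a motif present in 33.8% of all windows of 250 bases, and Slc6a13 held 1 GC box (32.7% of windows). Neither TATAAA (12.4% of windows) nor GTAAACA (3.17% of windows) was found in the 4 sequences shown, and GTAAACA was in 0 of the 7 windows. Genes that moved together therefore had windows of unlike base composition, and the matches are a description of letters only.

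Total counts ran from 67.6 to 104.4 M per PFC library and from 45.9 to 120.8 M per NAc library. As a check of the tissue labels, all 7 striatal genes (Drd1, Drd2 and others) were higher in the NAc, with a median log2 difference of 4.63, and all 7 cortical genes were lower there (median -2.65). The other 30 meningeal and fibroblast genes on the list were all measured, and in the PFC none was at 0 in any library. Their summed levels there were 249 to 548 CPM (counts scaled to library size, mean 337). The NAc sum, over the 27 genes tested there, was 307 to 634 CPM with a higher mean of 439. In the NAc, 5 of the 30 were at 0 in at least 1 library, among them Slc47a1 and Foxc2 in 26 of 48 libraries each and Cdh1 in 20. In bulk tissue, fewer cells of a type and less RNA per cell cannot be told apart.

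All 9 genes were lower in the NAc than in the PFC, by 2.12-fold for Islr up to 15.6-fold for Slc22a6. The levels below are CPM with TMM library sizes, given as the lowest, median and highest of 48 libraries. Fmod, the proteoglycan gene of the set with the highest level per kb of exon, had 3.87, 11.2 and 33.7 CPM in the PFC, against 0.774, 2.18 and 5.08 in the NAc. Dcn had 4.30, 7.27 and 16.8 CPM in the PFC, against 0.926, 2.36 and 6.79 in the NAc. Ogn had 2.23, 6.63 and 29.2 CPM in the PFC, against 0.604, 1.40 and 4.89 in the NAc. For these 3 genes the ranges of the regions overlapped, although the PFC library exceeded the NAc library of the same animal in 48 of 48 animals for Fmod and Ogn and in 47 of 48 for Dcn. Lum, the scarcest of them, had 1.19, 1.82 and 3.07 CPM in the PFC, against 0.0239, 0.304 and 1.32 in the NAc, where counts per library went down to 2, so its NAc values are the least precise. Islr, the most abundant gene per kb of exon in both regions, had 6.45, 9.97 and 27.2 CPM in the PFC, against 3.00, 4.86 and 7.47 in the NAc.

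The retinoic acid enzyme and the organic anion transporter had the widest gap. Aldh1a2 had 3.44, 5.96 and 16.7 CPM in the PFC, against 0.139, 0.643 and 1.77 in the NAc. Slc22a6 had 2.90, 6.12 and 15.2 CPM in the PFC, against 0.0901, 0.351 and 1.43 in the NAc. Their lowest PFC library was above their highest NAc library. The GABA transporter gene Slc6a13 (3.41, 7.50 and 17.5 CPM in the PFC, 1.00, 1.65 and 2.88 in the NAc) did not overlap either. Foxc1 did not overlap by a narrow margin, with 3.07, 4.46 and 8.32 CPM in the PFC, against 1.33, 1.95 and 2.97 in the NAc. So every PFC library was above every NAc library for 4 of the 9 genes, against 8.79% of all genes.

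**Figure D1:**
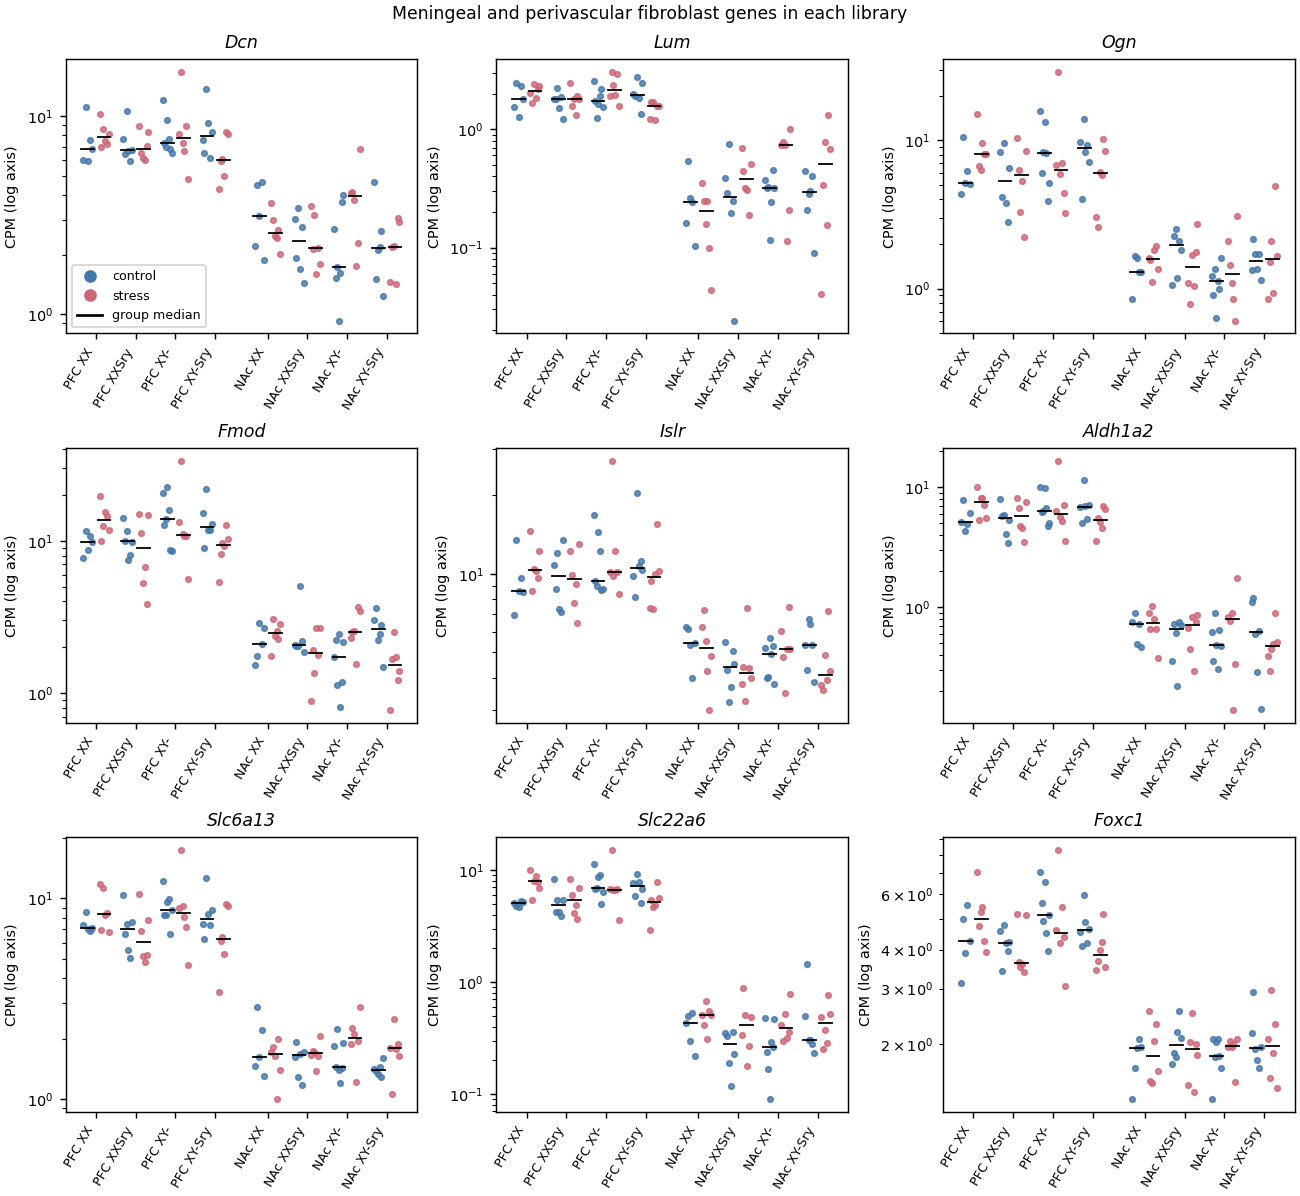
Level of each of the 9 genes in each of 96 libraries, by region and genotype, in CPM on log axes that differ between panels; blue points are controls, red points stressed animals and black lines group medians. The 48 PFC libraries sit above most or all of the 48 NAc libraries in each panel, and 1 stressed XY- PFC library is the highest for all 9 genes.

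In the edgeR quasi-likelihood fit of both regions with the animal as a block, all 9 genes were called lower in the NAc at an adjusted p below 0.05, against 41.9% of the 19918 genes tested. The log2 difference, NAc minus PFC, was -3.96 ± 0.13 (SE, 48 animals) for Slc22a6 (adjusted p = 2.02e-29) and -3.33 ± 0.14 for Aldh1a2 (8.74e-25). Among the proteoglycan genes it was -2.67 ± 0.15 for Lum (4.86e-21), -2.34 ± 0.12 for Fmod (7.21e-22), -2.16 ± 0.15 for Ogn (2.33e-17) and -1.58 ± 0.10 for Dcn (9.92e-19). For Slc6a13 it was -2.15 ± 0.07 (5.47e-29), for Foxc1 -1.20 ± 0.06 (2.98e-24) and for Islr -1.09 ± 0.07 (7.07e-18). The median over the 9 genes was -2.16, against 0.02 over all genes tested, and within cohorts 1, 2 and 3 it was -2.26, -2.19 and -2.23. The regions were punched separately, so region and dissection cannot be told apart.

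**Figure D2:**
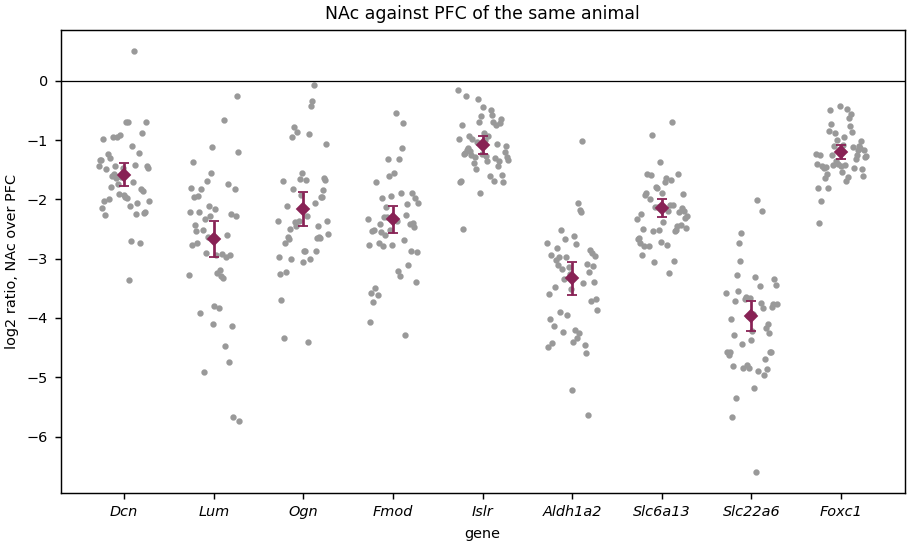
Log2 ratio of the NAc level to the PFC level of the same animal for each gene; grey points are 48 animals, purple diamonds the fitted log2 difference with its 95% interval. Slc22a6 and Aldh1a2 lie lowest, and 1 animal, for Dcn, is above 0.

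The order of the genes also shifted between the regions. Per kb of exon, the PFC order by mean level was Islr (4.03 CPM per kb), Fmod (3.64), Ogn (2.94), Aldh1a2 (2.84), Slc6a13 (2.75), Slc22a6 (1.62), Dcn (1.33), Foxc1 (0.793) and Lum (0.774). Neighbours from Ogn to Slc6a13, and Foxc1 with Lum, were not separated: Ogn was above Aldh1a2 in 26 of 48 libraries, Aldh1a2 above Slc6a13 in 25, and Foxc1 above Lum in 23. In the NAc, Islr again came first (1.83 CPM per kb) but Aldh1a2 was only above Lum and Slc22a6 (0.282 CPM per kb, with 0.103 for Slc22a6). There Fmod (0.662), Ogn (0.605) and Slc6a13 (0.585) were close, with Fmod above Ogn in 27 of 48 libraries and Ogn above Slc6a13 in 24.

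Other genes of the same families differed between the regions in both directions, as genes did in general. Of all 19918 genes tested, 8343 were called lower in the NAc and 8770 higher. Of 12 small leucine-rich proteoglycan genes tested, the 4 described above included, 9 were called lower in the NAc and 1 higher, with Podn, podocan, at -1.93 ± 0.10 (edgeR adjusted p = 3.12e-21). Omd, the neighbour of Ogn, had a mean of 0.910 CPM in the PFC, against 0.0879 in the NAc, where 6 libraries were at 0, whereas its other neighbour Ecm2 had 4.37 and 4.69 CPM. Of 18 genes of the retinoid pathway, Aldh1a2 included, 8 were called lower in the NAc and 9 higher. Aldh1a3, another retinaldehyde dehydrogenase, was lower (-3.14 ± 0.11, adjusted p = 3.47e-29), while the receptor gene Rarb (3.73 ± 0.05, 3.19e-44) and Crabp1, which encodes a retinoic acid binding protein (4.79 ± 0.11, 7.3e-37), were higher. Of 6 transporters of GABA, betaine, taurine and creatine, Slc6a13 included, 3 were lower and 2 higher. Slc6a12, a betaine and GABA transporter, was lower by a log2 difference of -2.90 ± 0.18 (edgeR adjusted p = 2.05e-19). Of 8 organic anion transporters, Slc22a6 included, 4 were lower and 3 higher.

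Markers of other cells of the brain border and vessels also differed between the regions. Their counts stand beside 8343 of all 19918 genes called lower in the NAc and 8770 called higher. Of 8 markers of perivascular and meningeal macrophages, 7 were called lower in the NAc and 1 higher (median log2 difference -2.38), with Mrc1, the mannose receptor, at -2.61 ± 0.13 (edgeR adjusted p = 3.16e-22). Their summed level was 13.01 to 35.3 CPM in the PFC and, over the 7 genes tested there, 7.73 to 14.7 CPM in the NAc. Of 13 mural cell markers, 10 were lower (median -0.35), and of 12 endothelial markers 8 were lower and 3 higher (median -0.20). Of 30 other meningeal and fibroblast genes, 26 were lower and 3 higher (median -1.27), led by Igfbp2 (-3.06 ± 0.07, 4.36e-36), while Col6a1 was higher (2.60 ± 0.07, 1.53e-30). All 6 red blood cell genes were lower (median -1.05). Among choroid plexus markers, Ttr, its defining product, averaged 0.571 CPM in the PFC and was at 0 in 2 libraries there. The summed choroid plexus markers were higher in the NAc, with means of 5.41 CPM in the PFC (7 genes tested) and 41.1 in the NAc (8 genes). Summed ependymal markers were also higher in the NAc, with 7.08 CPM (5 genes) in the PFC and 20.8 (7 genes) in the NAc. What these cells contributed to the levels of the 9 genes was not tested.

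Within a region the 9 genes were tested in 11 contrasts, and none was called in any of them in either region. Across PFC libraries the 9 genes varied together (median r of 0.768 over 36 pairs). Their shared signs and counts of small p in the PFC are therefore not independent observations. In the PFC, edgeR called 1.12% of 19292 genes for XX minus XY chromosomes, 0.0467% for testes minus ovaries, 0.181% for the cohort terms and 0.0% for each of the other 8 contrasts. The cohort calls depended on single libraries, with 35 genes in all, 5 without animal 15 and 3 without XY-Sry control 46. In the NAc it called 0.584% of 19684 genes for XX minus XY, 0.0102% for testes minus ovaries and 0.0% elsewhere. DESeq2 and limma-voom also called none of the 9 genes in these contrasts. At an unadjusted p below 0.05 they had 5 and 2 of the 9 for XX minus XY in the PFC, 5 and 4 for testes minus ovaries, and 0 and 0 for stress, where edgeR had 4, 5 and 0.

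For stress the 9 genes had no common sign. Averaged over genotypes, the log2 difference of stressed from control PFC libraries ran from -0.10 (Dcn, 95% interval -0.33 to 0.13) to 0.05 (Slc22a6, -0.22 to 0.32), with 4 genes below 0 and a median of 0.01 (7 genes and -0.03 with limma-voom). None of the 9 reached an unadjusted p of 0.05, as 1105 of 19292 genes did. Fmod, for example, averaged 12.3 ± 4.29 CPM (SD, n = 24) in controls and 11.7 ± 6.00 (n = 24) under stress, with a fitted difference of -0.03 (-0.38 to 0.33). Within cohorts 1, 2 and 3 the median PFC difference was 0.08, -0.24 and -0.26, and without animal 15 (stressed XY-, cohort 1), the PFC library highest for all 9 genes, it was -0.10, with 8 of 9 genes below 0. In the NAc the median was 0.11, and 0.11, -0.13 and 0.33 within cohorts. There again none of the 9 had an unadjusted p below 0.05, as 903 of 19684 genes did. Cohort 2 held 10 control and 2 stressed animals and cohort 3 held 3 and 10.

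By genotype, the signs of the PFC differences were not alike, and no gene was called. In XX mice all 9 genes were above 0 (median log2 difference 0.33), and in XY-Sry mice all 9 were below 0 (median -0.45). Slc22a6 in the 5 XX controls measured 4.71, 4.78, 5.08, 5.22 and 5.27 CPM, and in the 6 stressed XX mice it ran from 5.43 to 9.96 with a median of 7.90. These groups did not overlap, and the difference was 0.70 ± 0.26 on the log2 scale with an unadjusted p of 0.00997 and an edgeR adjusted p of 1. Of 72 such sets, for 9 genes in 4 genotypes and both regions, this 1 did not overlap, against 0.281% of all gene and group sets. In XY-Sry mice Slc22a6 ran from 5.04 to 9.14 CPM (median 7.22) in controls and from 2.90 to 7.79 (median 5.15) under stress, with overlap. Dcn there was -0.51 ± 0.21 (adjusted p = 0.751) and Lum -0.44 ± 0.18 (0.751).

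The differences between these responses were tested as interactions. For stress by chromosomes all 9 PFC values were above 0 (median 0.35), with Slc22a6 at 0.67 ± 0.24 (unadjusted p = 0.00777, edgeR adjusted p = 1). For stress by gonads all 9 were below 0 (median -0.42), with Lum at -0.48 ± 0.18 (unadjusted p = 0.00909, adjusted p = 0.623). At an unadjusted p below 0.05 stood 1 and 3 of the 9 genes, against 606 and 1296 of 19292. Without animal 15 these counts became 7 and 1 of the 9 genes, against 727 and 1234 of 19288, with 0 of 9 called as before. For chromosomes by gonads 0 of 9 had an unadjusted p below 0.05. In XXSry and XY- mice the PFC medians under stress were -0.05 and -0.06, and without animal 15 the XY- median was -0.31.

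In the NAc the signs by genotype were others. In XY- mice all 9 genes were above 0 under stress (median 0.55), and the medians were 0.10 in XX, -0.01 in XXSry and -0.16 in XY-Sry mice. With limma-voom the XY- median was 0.29 and the XY-Sry median 0.04, and without cohort in the model the XXSry median was 0.05, so the signs in XXSry and XY-Sry mice depend on the fit. Fmod in XY- mice ran from 0.815 to 2.44 CPM (median 1.73) in controls and from 1.56 to 3.66 (median 2.54) under stress, a log2 difference of 0.65 ± 0.27 (unadjusted p = 0.0197, edgeR adjusted p = 1). In XY-Sry mice Fmod ran from 1.49 to 3.63 CPM (median 2.63) in controls and from 0.774 to 2.51 (median 1.53) under stress, a difference of -0.72 ± 0.29 (0.0187 and 0.797). Its stress by gonads interaction in the NAc was -0.92 ± 0.28 (unadjusted p = 0.00205, adjusted p = 1). Over the 4 genotypes, 0 of the 9 genes in XX, 0 in XXSry, 2 in XY- and 1 in XY-Sry had an unadjusted p below 0.05. Among all 19684 genes tested, 756, 491, 876 and 1220 did. For the 9 genes, leaving out 1 library gave 1 (without XY- control 16) to 5 (without stressed XY- animal 31) in XY- mice, and 0 (without stressed animal 23) to 2 (without stressed animal 7) in XY-Sry mice.

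With XX in place of XY chromosomes, all 9 genes had lower fitted PFC levels (median log2 difference -0.24), again without a call. Ogn had -0.41 ± 0.21 (adjusted p = 0.463), Fmod -0.32 ± 0.16 (0.43), Slc22a6 -0.29 ± 0.12 (0.318) and Lum -0.06 ± 0.09 (0.874). Without animal 15 Ogn was at -0.20, Fmod at -0.19, Slc22a6 at -0.19 and Lum at -0.03. Fmod averaged 10.9 ± 3.65 CPM (SD, n = 23) with XX and 13.1 ± 6.15 (n = 25) with XY chromosomes, and Slc22a6 5.97 ± 1.79 and 6.92 ± 2.52, with overlapping ranges for both genes. Unadjusted p was below 0.05 for 4 of 9 genes, against 2234 of 19292. Without animal 15 it was below 0.05 for 0 of 9, against 2014 of 19288, and the median was -0.16. Within cohorts 1, 2 and 3 the median was -0.28, -0.44 and 0.17. Perivascular and meningeal macrophage markers were below 0 in 8 of 8 genes (median -0.41, 1 called), with summed levels of 14.7 to 25.8 CPM in XX and 13.01 to 35.3 CPM in XY libraries, and red blood cell genes in 6 of 6 (median -0.35, 0 called). Their part in the values of the 9 genes was not tested.

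With testes in place of ovaries, all 9 genes also had lower fitted PFC levels (median -0.24). Foxc1 averaged 4.25 ± 0.692 CPM (SD, n = 24) with testes and 5.02 ± 1.26 (n = 24) with ovaries, a log2 difference of -0.24 ± 0.08 (unadjusted p = 0.0038, edgeR adjusted p = 0.429). Slc6a13 averaged 7.23 ± 2.14 and 8.74 ± 2.54 CPM (-0.28 ± 0.11, adjusted p = 0.561). Unadjusted p was below 0.05 for 5 of 9 genes, against 1301 of 19292, and without animal 15 for 3 of 9, against 1194 of 19288. Within cohorts the median was -0.20, -0.57 and -0.05. Of 30 other meningeal and fibroblast genes, 28 were below 0 and 0 were called. Their mean had r = 0.955 with the mean of the 9 across PFC libraries, so these signs are not independent of those of the 9. Macrophage markers were below 0 in 7 of 8 (median -0.25), and all 6 red blood cell genes were below 0 (median -0.36, summed levels 52.3 to 247 CPM with testes and 42.8 to 357 with ovaries), and their part was not tested.

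In the NAc the 9 genes had no common sign for either contrast. For XX minus XY the median was -0.05, and -0.06, 0.08 and -0.19 within cohorts. Lum was the farthest from 0 at -0.66 ± 0.28 (edgeR adjusted p = 0.701), with 0.296 ± 0.189 CPM (SD, n = 23) in XX and 0.431 ± 0.315 (n = 25) in XY libraries. For testes minus ovaries the median was -0.06, and -0.06, 0.26 and -0.28 within cohorts, and Dcn stood at -0.33 ± 0.16 (adjusted p = 0.535). The difference of each effect between the regions was tested in the paired fit, where 0 of the 9 genes were called, against 0.0% of 19918 genes for stress, 0.0151% for chromosomes and 0.0% for gonads. At an unadjusted p below 0.05 stood 0, 1 and 2 of the 9, against 989, 954 and 1046 of 19918 genes. Those of the 9 were Fmod for chromosomes (0.50, NAc effect minus PFC effect) and Ogn (0.58) and Foxc1 (0.28) for gonads.

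**Figure D3:**
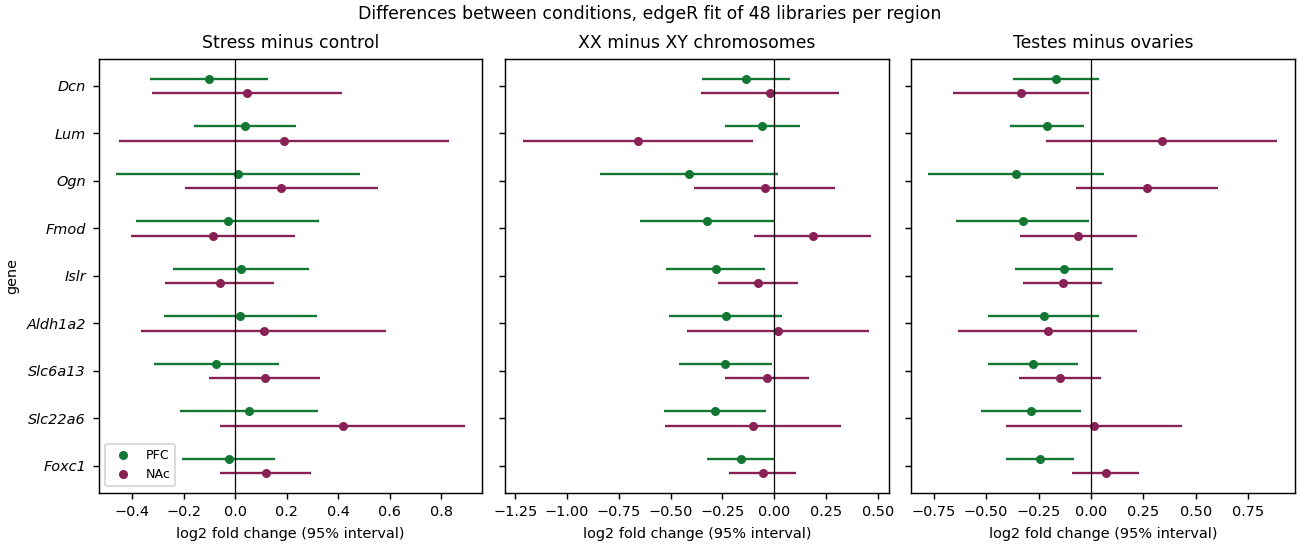
Fitted log2 differences of the 9 genes for stress minus control, XX minus XY chromosomes and testes minus ovaries, with 95% intervals; green is the PFC and purple the NAc. Stress values sit around 0, and PFC values for chromosomes and gonads lie below 0 with intervals that reach or come near 0.

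Cohort was the other labelled source of variation. Slc6a13 averaged 8.78 ± 2.93 CPM (SD, n = 23) in cohort 1, 7.15 ± 1.91 (n = 12) in cohort 2 and 7.34 ± 1.41 (n = 13) in cohort 3 of the PFC (unadjusted p = 0.00518, edgeR adjusted p = 0.204). Unadjusted p for the cohort terms was below 0.05 in 5 of 9 genes in the PFC, against 2291 of 19292, and in 1 of 9 in the NAc, against 1080 of 19684. Leaving out 1 library gave 1 of 9 (without XY-Sry control 38) to 7 of 9 (without XY- control 5) in the PFC, and 0 to 3 in the NAc. Without animal 15 the PFC count was 3 of 9, against 2103 of 19288.

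The 9 genes varied between animals of the same group. Their biological coefficient of variation, the spread between replicates beyond counting noise in the edgeR fit, was 0.184 (Foxc1) to 0.482 (Ogn) in the PFC, against a median of 0.0894 over all genes, and 0.179 (Foxc1) to 0.596 (Lum) in the NAc, against 0.148. Ogn was more variable than 95.8% of genes in the PFC and Foxc1, the least variable of the 9 there, than 72.6%. In the NAc these shares ran from 57.8% (Foxc1) to 91.8% (Lum). The highest PFC library for all 9 genes was that of animal 15, with 29.2 CPM of Ogn and 33.7 of Fmod. In the NAc the highest values were spread over 6 libraries, and that of animal 41 (stressed XY-, cohort 3) was the highest for 3 genes.

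In the PFC these deviations were shared. With group and cohort removed from log2 CPM (prior count 2), the median Pearson correlation over the 36 pairs of genes was 0.768 across 48 libraries, against -0.0018 over all pairs of tested genes. Of the 36 pairs, 28 were above 0.7, as were 0.158% of all pairs, and none was below 0. The closest pair was Fmod with Aldh1a2 (r = 0.926, rho = 0.924, permutation p = 1e-05 for each, the smallest that 100000 draws can give, adjusted p = 1.24e-05 over the 36 pairs). Without the 2 libraries farthest from the median it was 0.905, and within cohorts 0.941, 0.898 and 0.892. Ogn with Fmod reached r = 0.907 (rho = 0.895) and the transporters Slc6a13 and Slc22a6 r = 0.905 (rho = 0.898), both with permutation p = 1e-05 and adjusted p = 1.24e-05. Points share the library and its depth, and the library total had r = -0.235 with the mean of the 9 genes.

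Lum had lower values. Its 8 PFC correlations had a median of 0.411, from 0.260 with Ogn (permutation p = 0.0736) to 0.706 with its neighbour Dcn (rho = 0.683, permutation p = 1e-05, adjusted p = 1.24e-05). The 28 pairs without Lum had a median of 0.789. Lum is also the gene with the fewest PFC counts (mean 149.0 per library, against at least 364.6 in the other genes), and the part of counting noise in its values was not tested. Within cohorts 1, 2 and 3 the median over all 36 pairs was 0.848, 0.745 and 0.608, and without the 2 farthest libraries of each pair it was 0.708.

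In the NAc the correlations of these genes were lower. The median over the 36 pairs was 0.208, 8 pairs were below 0 and 1 was above 0.7, as were 0.753% of all pairs. That pair was Dcn with Lum (r = 0.725, rho = 0.769, permutation p = 1e-05, adjusted p = 0.00036), with 0.708, 0.725 and 0.819 within cohorts. Dcn, Lum, Ogn and Aldh1a2 had positive values with each other, from 0.430 to 0.725. Fmod and Islr did not follow them, with medians of 0.123 and -0.119 over their 8 pairs. Islr in the NAc had r = 0.529 with 1600029O15Rik, the gene it overlaps on the other strand, and -0.0936 in the PFC. Mean counts per NAc library were 29.2 for Lum, 32.2 for Slc22a6 and 50.2 for Aldh1a2 but 390.5 for Islr and 173.7 for Fmod. The difference in correlation between the regions was not tested.

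**Figure D4:**
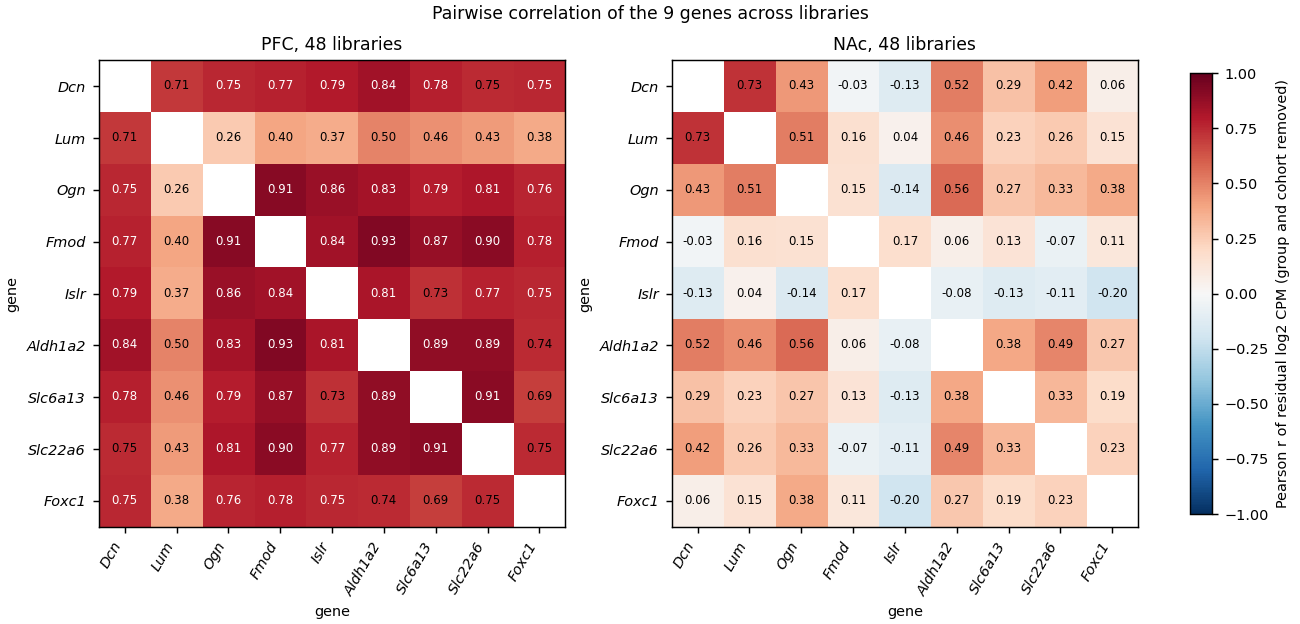
Pearson correlation of each pair of the 9 genes across 48 PFC libraries and 48 NAc libraries, with group and cohort removed from log2 CPM; red is positive and blue negative. PFC values are mostly above 0.7 except in the row of Lum, and NAc values are near 0 in the rows of Fmod and Islr.

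No relation between the PFC and NAc levels of an animal was detected. Over 48 animals the correlation of a gene's PFC deviation with its NAc deviation ran from -0.0786 (Slc22a6) to 0.219 (Lum, rho = 0.164), the smallest permutation p over the 9 genes was 0.134, and the adjusted p was 0.878 for each. For the mean of the 9 genes r was 0.0228 and rho 0.0855, and without the 2 farthest animals r was 0.157. Animal 15 had rank 1 in the PFC and rank 7 in the NAc by that mean. Animal 41 had rank 1 in the NAc and rank 46 of 48 in the PFC.

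Other genes of the meninges moved with the 9 in the PFC. The mean of 30 other meningeal and fibroblast genes had r = 0.955 and rho = 0.941 with the mean of the 9 genes across 48 PFC libraries, and 0.960, 0.947 and 0.945 within cohorts. The remaining proteoglycan genes had r = 0.832 (8 genes), the perivascular and meningeal macrophage markers 0.806 (8 genes), the remaining retinoid genes 0.758 and the remaining GABA and betaine transporters 0.647. Few genes carried the last values: 2 of 17 retinoid genes had r above 0.5 and 5 were below 0, and 1 of 5 transporters was above 0.5 and 1 below 0. Among the other meningeal genes 23 of 30 were above 0.5, among the macrophage markers 5 of 8 and among the proteoglycan genes 4 of 8. Markers of the vessel wall were less tied to them, with 0.424 for mural cells (0.628, -0.119 and 0.0700 within cohorts) and 0.228 for endothelial cells. Astrocyte markers had 0.424 (0.426 without the 2 farthest libraries), with 2 of 10 genes above 0.5 and 1 below 0. Markers of oligodendrocyte precursors had 0.355, with 1 of 8 genes above 0.5 and 5 below 0. Red blood cell genes (-0.0720) and microglia (0.0566) were near 0. Choroid plexus markers had 0.560 overall but 0.736, 0.437 and -0.0546 within cohorts, and oligodendrocytes -0.313. In the NAc the highest were the other meningeal genes (0.471) and astrocytes (0.451, and 0.278 without the 2 farthest libraries). These correlations are descriptions over 48 libraries, and both sides of each share the library and its depth.

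Gene by gene, 131 of 19283 other genes had r above 0.7 with the mean of the 9 in the PFC, and 0 of 19675 in the NAc. Genes were named only if their mean was at least 0 log2 CPM and their symbol was not a predicted-gene name (13064 genes in the PFC, 13262 in the NAc). Among these, the 10 closest in the PFC were Aebp1 (r = 0.930), Gjb2 (0.929), Ptgds (0.924), Serping1 (0.921), Slc13a4 (0.921), Igf2 (0.919), Colec12 (0.911), Bmp6 (0.903), Thbd (0.901) and Tfap2b (0.892), and 5 of them were already on the meningeal list. Gjb2 encodes the gap junction protein connexin 26, Ptgds a prostaglandin D synthase abundant in cerebrospinal fluid, Igf2 a growth factor and Slc13a4 a sulfate transporter. Ptgds was the most abundant of the 10, with 303.6 ± 121.7 CPM (SD, n = 48). The 10 closest in the NAc reached lower values: Igf2 (0.692), Itih2 (0.6249), Serping1 (0.615), Cp (0.553), Hacd4 (0.541), Itih5 (0.537), Htra3 (0.521), Sesn1 (0.516), Icosl (0.508) and Mgp (0.506). Igf2 and Serping1 were among the 10 in both regions. Each of the 9 genes against the mean of the other 8 ranged in the PFC from 0.455 (Lum) to 0.941 (Fmod), and in the NAc from -0.0853 (Islr) to 0.646 (Aldh1a2).

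**Figure D5:**
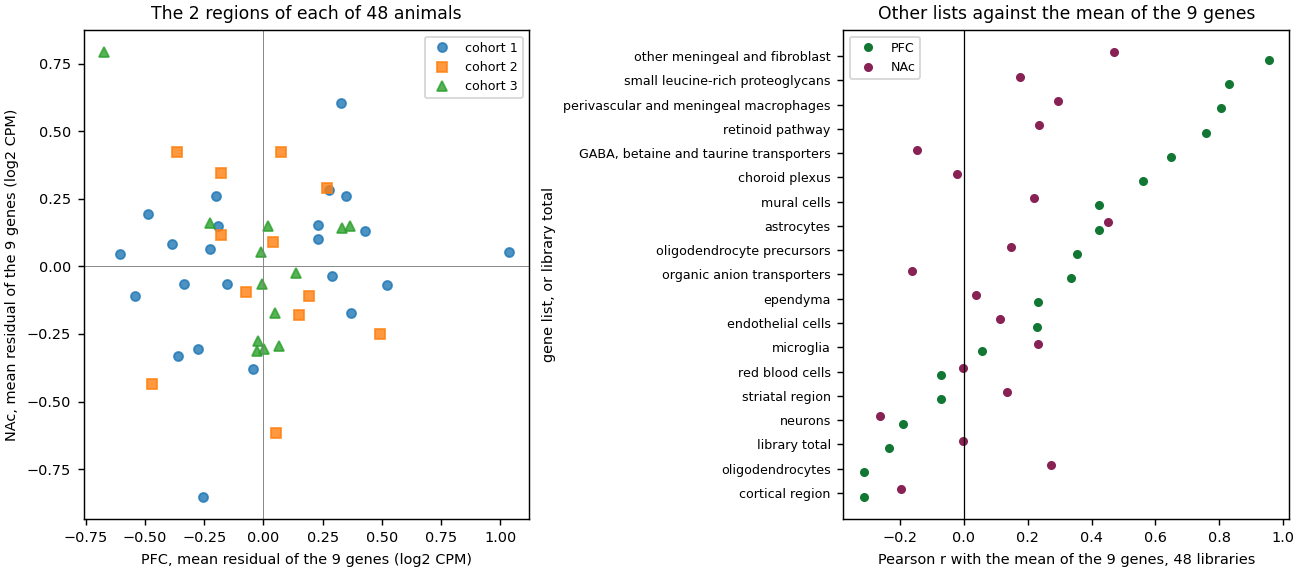
Left, the mean deviation of the 9 genes from group and cohort (log2 CPM) in the NAc against the PFC of the same animal, with colour and shape for cohort; right, Pearson r of the mean of each other gene list, and of the library total, with the mean of the 9 genes across 48 libraries, in green for the PFC and purple for the NAc. The animals form no line (r = 0.0228), and the other meningeal genes have the highest r in both regions.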

How the data were processed

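RNA from punches of the 2 regions was made into mRNA libraries from 100 ng of RNA with 15 cycles and read in pairs of 50 bases, per the labels' protocols. The authors deposited a table of raw read counts per gene for each region. The submitters' processing notes name FastQC 0.11.9, Trimmomatic 0.38, HISAT2 2.2.0, edgeR, DESeq2 and the GRCm38 build. What counted the reads, with which strand setting and annotation, is not given in the sources used here.

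Groups, animals and cohorts came from the labels. Counts were fitted per region with edgeR 4.0.16 (R 4.3.3; TMM, low-count filter by group, quasi-likelihood F test, Benjamini-Hochberg over all genes, threshold 0.05) as 8 group means plus cohort. Regions were compared in a fit of 96 libraries with the animal as a block. The pairing comes from the animal number in the titles: over 19058 genes the deviations of an animal's libraries had a median r of 0.0568, above 0.1 in 17 of 48 animals. CPM values were computed here. Alternatives used DESeq2 1.42.0, limma 3.58.1 (voom), other scaling, filters and cohort settings, and leaving out each library. The scripts were tested on simulated data. The labels give separate animals as replicates.

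The 9 genes and all lists were chosen with earlier results of these data known. Named genes were the 9, up to 4 genes with the smallest p in each other list described, proteoglycan neighbours of the 9 and region markers. Also named were the 10 genes per region closest to the mean of the 9, within the limits on level and symbol given above.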

Additional observations from a re-analysis of the deposited data

Results flagged for a closer look

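Of 144 sets of 5 to 7 libraries (9 genes, 8 groups, both regions), 6 held a library far from the others by Dixon's test at the 95% level, which chance gives in about 1 of 20 sets. In stressed XY- PFC libraries, animal 15 had 29.2 CPM of Ogn, against 7.03 in the next library, and 27.2 CPM of Islr, against 12.2. Islr was also far above the next library in the PFC of XY-Sry control 38 (20.4 CPM against 11.2) and in the NAc of stressed XXSry animal 28 (7.38 against 4.38). Fmod in the NAc of XXSry control 34 had 5.08 CPM, against 2.19. Foxc1 in the NAc of stressed XY- animal 32 was the lowest of its group at 1.51 CPM, against 1.95. None of 81 interaction tests of the 9 genes passed the threshold.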

How the results depend on the processing

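The number of genes called among the 9 was the same under all 161 alternatives and 1104 fits without 1 library: 9 for NAc minus PFC and 0 elsewhere. The strict filter (1 CPM in at least 0.5 of the libraries) left 6 of the 9 to test in the NAc, without Lum, Aldh1a2 and Slc22a6. Without the replicate block, 9 genes were called lower in the NAc with a median of -2.20, and with the pairing, in unstressed animals only, the median was -2.32. Of 54 alternative medians, 10 moved beyond the spread, all within cohorts 2 and 3. The sign changed in 7 of the 54: in 5 of those 10, for XX minus XY in the NAc within cohort 2 (0.08), and for PFC stress with limma-voom (-0.03, against 0.01). The 10 were, in the PFC, -0.24 and -0.26 for stress, -0.44 and 0.17 for XX minus XY, and -0.57 and -0.05 for testes minus ovaries. In the NAc they were -0.13 and 0.33 for stress and 0.26 and -0.28 for testes minus ovaries. The cause was not tested. Without 1 library the sign changed in 15 of 288 medians, and among single values without a call it changed in 53 of 567 alternatives and 81 of 3024 fits without 1 library. When 1 library was left out, unadjusted p was below 0.05 in 0 to 6 of the 9 genes for XX minus XY in the PFC, 3 to 5 for testes minus ovaries, 0 to 6 for stress in XY-Sry mice, 1 to 7 for stress by chromosomes, 1 to 5 for stress by gonads and 1 to 7 for cohort.

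Counts over all genes moved by more than 1.5 times in some settings. In the PFC, DESeq2 called 356 genes for XX minus XY (edgeR 217), 17 for testes minus ovaries (9), 186 for cohort (35), 15 for stress in XY- mice (0), 6 for stress by gonads (0), 2 for stress (0) and 1 for chromosomes by gonads (0). Also in the PFC, the strict filter gave 6 for testes minus ovaries and 5 for stress in XY- mice, RLE scaling 3 for the latter, limma-voom 23 for cohort and the fit without cohort 1 for stress. In the NAc, testes minus ovaries (2) gave 19 with DESeq2, 1 with limma-voom, 0 with the strict filter and 3 without cohort, XX minus XY (115) gave 64 with limma-voom and 76 with the strict filter, and DESeq2 gave 2 for stress and 1 for cohort. Region by XX minus XY gave 0 without the replicate block, against 3. Without 1 library, the PFC counts ran from 152 to 293 for XX minus XY, 7 to 13 for testes minus ovaries, 3 to 59 for cohort, and up to 6 for stress in XY- mice, 2 for stress by gonads and 1 for stress. The NAc count for testes minus ovaries ran from 0 to 68 (68 without XY-Sry control 33). Fits of both regions without 1 library used the dispersion trend of all libraries. The median r over the 36 pairs was 0.608 to 0.848 in the PFC and 0.174 to 0.254 in the NAc under 6 alternatives each, of which those within cohorts were chosen after seeing the data. Single pairs moved more (PFC Islr with Foxc1, 0.755 overall and 0.257 within cohort 3). Counts down to 2 for Lum limit its NAc values.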
